A study of Arabidopsis thaliana with 8 samples.

Results

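The warm response of *pwr-2* seedlings was set against that of wild-type Col-0, gene by gene. The quantity followed is the change from 23°C to 27°C in *pwr-2* minus the same change in Col-0, on the log2 scale, here called the difference. A positive difference means that the level went up more, or down less, in *pwr-2*. All 8 libraries of the series entered: Col-0 kept at 23°C, Col-0 shifted to 27°C for 2 h, *pwr-2* kept at 23°C and *pwr-2* shifted to 27°C for 2 h, with 2 biological replicates of each, grown as about 100 seedlings. Seedlings were whole and 6 days old, raised in short days of 8 h light and 16 h dark, and *pwr-2* carries its mutation in the Col-0 background. No other *pwr* allele was sequenced. Of 33602 genes counted, 19936 had enough counts to be tested. In the sentences on single genes, cool stands for 23°C and warm for 27°C, and values are given as replicate 1 and then replicate 2. Each difference was obtained from a fit over the 8 libraries with the replicate number as a block, and again from the 4 libraries of replicate 1 alone and the 4 of replicate 2 alone.

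Moderately warm temperature makes Arabidopsis seedlings elongate, a programme called thermomorphogenesis that runs through the transcription factor *PIF4* and auxin synthesis, and it is known to dampen immune output. *PWR* (*POWERDRESS*) encodes a SANT-domain protein that works with the histone deacetylase HDA9, which removes acetyl groups from histone H3. A difference between the warm responses of 2 genotypes can come from any of the 4 groups, so levels in every library are given for many of the genes described. For the others only differences are given.

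*PWR* itself (AT3G52250, chromosome 3) was at 43.1 to 81.7 CPM (counts scaled by TMM-normalized library sizes to 1e6) in the 4 Col-0 libraries and at 11.3 to 20.1 CPM in the 4 *pwr-2* libraries, without overlap. Its own difference was 0.30 (standard error 0.49), with 0.03 in replicate 1 and 0.70 in replicate 2. Total counts ran from 7379650 to 15733741 per library. Libraries of one group differed in ways the labels do not give. Replicate 1 of cool Col-0 was the shallowest library and stood high for seed storage, flavonoid, camalexin and organelle transcripts, with 6.77% of counts on organelle genes against 0.296% in replicate 2. Replicate 2 of cool *pwr-2* stood high for small heat-shock transcripts and had 0.0374% of counts on organelle genes against 6.49% in replicate 1. At 27°C this share was 0.397% to 3.3%. Summed CPM of 12 shoot tissue markers was 11069.7 to 18846 over all libraries and that of 12 root tissue markers was 71.3 to 146.6, and no marker was at 0 in every library. Such sums weigh the most abundant members most. The shoot markers include *LHCB1.3*, also in the photosynthesis list as *CAB1*, and the root markers include *PHT1;1*, so the sums are no measure of shoot or root content. In whole seedlings, fewer cells of a type and less RNA per cell cannot be told apart.

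No gene passed the interaction test of edgeR at an adjusted p under 0.05 (0 of 19936, 0%; lowest adjusted p = 0.931). The unadjusted p was under 0.05 for 966 genes (4.85%), of which 740 (3.71%) had a higher and 226 (1.13%) a lower warm response in *pwr-2*. Where no gene differed, a share of about 0.05 would pass this threshold, so 4.85% is no excess. Genes picked by the unadjusted p are thus described and not called. DESeq2 with the same block called 25 genes (0.125%) at an adjusted p under 0.05, each with a higher warm response in *pwr-2* and each with a difference over 1 in both replicates. With the replicate block fitted within each genotype, edgeR called 0 genes at 0.05 and 6 (0.0301%) at an adjusted p under 0.10, with 1264 (6.34%) higher and 725 (3.64%) lower at an unadjusted p under 0.05.

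The 2 replicate numbers gave differences that were related but unequal in size. Across all 19936 genes, which are not independent of each other, the values of replicates 1 and 2 had a Pearson's r of 0.47 and a Spearman's rho of 0.31. The standard deviation of the difference across genes was 1.31 in replicate 1 and 0.80 in replicate 2. The sign was the same in both replicates for 11570 genes (58%). The difference was over 1 in both replicates for 882 genes (4.42%) and under -1 in both for 482 (2.42%). In replicate 1 alone 15.6% of genes lay over 1 and 11.6% under -1, and in replicate 2 alone 7.01% and 5.22%.

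**Figure D1:**
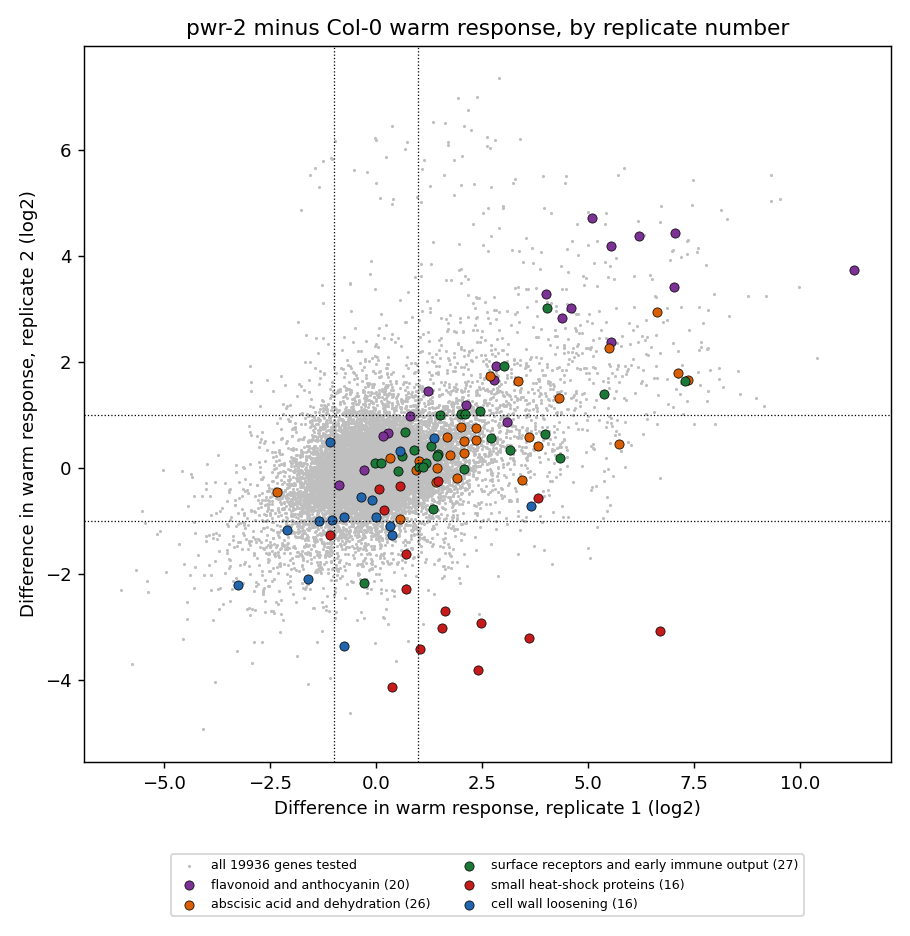
Difference in warm response (*pwr-2* minus Col-0, log2) of each of the 19936 genes in replicate 1 (horizontal axis) and replicate 2 (vertical axis), with members of 5 gene lists in colour and dotted lines at 1 and -1. Flavonoid genes spread far into the upper right, most small heat-shock genes lie to the right of 0 and below it, and cell wall genes lie mostly below 0.

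For most of the genes with an unadjusted p under 0.05 the fitted changes had opposite signs in the 2 genotypes. They were picked by the p of the difference between these changes. That choice by itself favours opposite signs, and opposite ranks of the genotypes at 23°C and 27°C. The counts below therefore describe the picked genes and are no separate result, and fitted signs were not counted in this way over all genes. Of the 740 genes with a higher warm response in *pwr-2*, 723 had a fitted change below 0 in Col-0 and above 0 in *pwr-2*, and of the 226 with a lower one, 215 had the reverse. The median change from 23°C to 27°C of the 740 in Col-0 was -1.66 in replicate 1 and -0.14 in replicate 2, and 1.25 and 1.16 in *pwr-2*. At 23°C the fitted level of 684 of the 740 was lower in *pwr-2* than in Col-0, and at 27°C that of 707 was higher. The median change in Col-0 was far from 0 in replicate 1 alone, whereas that in *pwr-2* was nearly the same in both replicates. Of the 740 genes, 415 (56.1%) had their highest level in replicate 1 of cool Col-0, against 16.4% of all genes tested, and 189 and 95 had it in replicates 1 and 2 of *pwr-2* at 27°C.

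The count of genes depended on single libraries. When replicate 1 of cool Col-0 was left out, 264 of 20322 genes (1.3%) were higher and 150 (0.738%) lower at this p, 251 of the 264 being among the 740. When replicate 2 of cool Col-0 was left out, 1935 of 20348 (9.51%) were higher and 1779 (8.74%) lower, and 221 genes passed an adjusted p of 0.05, 186 higher and 35 lower. The counts were 806 (3.96%) and 206 (1.01%) without replicate 2 of cool *pwr-2*. With replicate 1 of cool Col-0 and replicate 2 of cool *pwr-2* both left out, 166 of 20221 genes (0.821%) were higher and 104 (0.514%) lower. Leaving out replicate 1 of Col-0 at 27°C, replicate 1 of *pwr-2* at 23°C or replicate 2 of *pwr-2* at 27°C also lowered the higher count by more than 1.5 times, to 273, 343 and 308, and the lower count to 121, 124 and 80. Without replicate 1 of *pwr-2* at 27°C the lower count was 391. What set these libraries apart was not tested. Differences in replicate 2 do not use replicate 1 of cool Col-0 at all, and are therefore given beside those of replicate 1. They do use replicate 2 of cool *pwr-2*, which also stood apart, so neither replicate number is free of such a library.

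**Figure D2:**
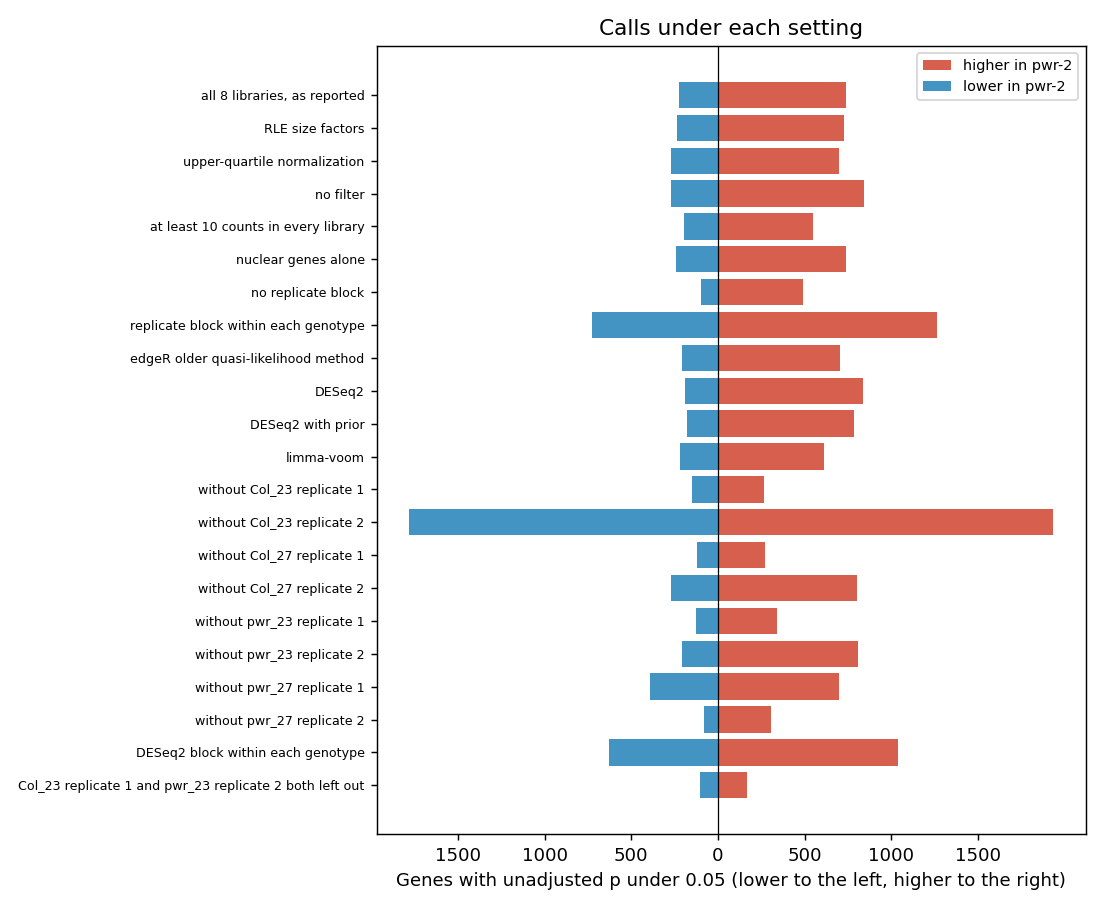
Number of genes with an unadjusted p under 0.05 for the difference in warm response, under the reported fit (top) and each other setting, with genes lower in *pwr-2* drawn to the left of 0 and genes higher to the right. Leaving out replicate 2 of Col-0 at 23°C gave 1935 higher and 1779 lower genes, and leaving out replicate 1 gave 264 and 150.

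The gene with the lowest p was AT2G43620, which encodes a chitinase family protein, an enzyme class that breaks down fungal cell walls. Its level was 20.9 and 14.0 CPM in cool Col-0, 6.67 and 3.99 in warm Col-0, 3.03 and 2.73 in cool *pwr-2*, and 13.3 and 12.3 in warm *pwr-2*. Both Col-0 libraries at 27°C lay below both at 23°C, both *pwr-2* libraries at 27°C lay above both at 23°C, and none of the 4 groups overlapped. The difference was 3.86 (standard error 0.37, unadjusted p = 4.83e-05), with 3.71 in replicate 1 and 3.87 in replicate 2. It passed in DESeq2 (adjusted p = 3.40e-08) and had an adjusted p = 0.0977 with the block within each genotype, in a range from 3.01e-08 to 1 over all settings. With any library left out it stayed between 3.65 and 4.11.

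Receptor and kinase genes of immunity were among the next lowest p. *CRK6* (AT4G23140), a cysteine-rich receptor-like kinase, was at 1.48 and 0.556 CPM in cool Col-0, 0.652 and 0.0634 in warm Col-0, 0.866 and 0.260 in cool *pwr-2*, and 7.61 and 5.78 in warm *pwr-2*. Both *pwr-2* libraries at 27°C were above all 6 others, and the Col-0 groups overlapped. *FRK1* (AT2G19190), a receptor-like kinase used as a marker of flagellin perception, was at 8.59 and 5.81 CPM in cool Col-0, 0.725 and 1.27 in warm Col-0, 1.08 and 1.69 in cool *pwr-2*, and 1.90 and 3.43 in warm *pwr-2*. Its Col-0 groups did not overlap and its *pwr-2* groups did not either, and the change in Col-0 (-3.31 and -2.07 in the 2 replicates) was larger than that in *pwr-2* (0.73 and 0.96). The difference was 5.38 (standard error 0.92) for *CRK6* and 3.81 (standard error 0.66) for *FRK1*, each called by DESeq2 with an adjusted p = 0.0253 and 0.0397.

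The 250 bases before the annotated start of these 3 genes and of *LEA7*, a dehydration gene described further on, are shown because they carry the short motifs discussed with the gene groups. They were read from the TAIR10.1 reference, each on the strand of its gene, 5′ to 3′. Capitals mark TTGAC, the core of the W-box that WRKY factors bind, or for *LEA7* ACGTG, the core of the abscisic acid response element, on either strand. ACGTG is also contained in the G-box CACGTG.
AT2G43620 (chr2:18095094-18095343, minus strand): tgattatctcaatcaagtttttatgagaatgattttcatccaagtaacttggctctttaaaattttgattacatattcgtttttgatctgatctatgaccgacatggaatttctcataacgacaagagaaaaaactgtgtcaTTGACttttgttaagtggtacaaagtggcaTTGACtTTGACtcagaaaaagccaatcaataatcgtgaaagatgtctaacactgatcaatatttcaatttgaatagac
CRK6 (chr4:12121119-12121368, plus strand): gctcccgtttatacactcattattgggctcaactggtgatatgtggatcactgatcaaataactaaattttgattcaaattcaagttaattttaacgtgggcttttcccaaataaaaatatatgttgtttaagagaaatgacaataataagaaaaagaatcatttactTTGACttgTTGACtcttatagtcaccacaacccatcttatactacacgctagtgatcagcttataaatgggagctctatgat
FRK1 (chr2:8329945-8330194, minus strand): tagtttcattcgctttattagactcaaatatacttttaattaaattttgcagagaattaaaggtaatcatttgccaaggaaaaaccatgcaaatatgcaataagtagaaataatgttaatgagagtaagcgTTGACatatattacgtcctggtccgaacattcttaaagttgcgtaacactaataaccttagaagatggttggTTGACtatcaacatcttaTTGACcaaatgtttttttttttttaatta
LEA7 (chr1:19619474-19619723, plus strand): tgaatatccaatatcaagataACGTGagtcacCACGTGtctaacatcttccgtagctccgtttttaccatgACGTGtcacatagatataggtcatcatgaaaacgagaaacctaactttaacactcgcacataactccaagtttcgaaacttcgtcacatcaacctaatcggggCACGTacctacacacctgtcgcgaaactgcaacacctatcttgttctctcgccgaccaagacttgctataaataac

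TTGAC begins 108, 78 and 72 bases before the start of AT2G43620, 82 and 74 bases before that of *CRK6*, and 119, 47 and 29 bases before that of *FRK1*. Of all 19826 tested genes with such a window, 45.1% hold TTGAC and 24.2% ACGTG. Among the 740 genes with a higher warm response in *pwr-2* the shares were 55.1% and 38.4%, and among the 226 with a lower one 49.1% and 19.5%. The G-box CACGTG was in 7.57% of all windows, 13.8% of the 740 and 2.21% of the 226. The heat-shock element core GAANNTTC was in 9.34%, 12.7% and 7.52%, and the GCC-box core GCCGCC in 1.95%, 1.89% and 0.885%. A match is a description of the letters in the window.

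*RLP23* (AT2G32680), a receptor-like protein that detects a microbial peptide, was at 2.69 and 0.433 CPM in cool Col-0, 0.290 and 0.253 in warm Col-0, 0.541 and 0.260 in cool *pwr-2*, and 4.88 and 3.97 in warm *pwr-2*. The *pwr-2* libraries at 27°C were above all others. *ARCK1* (AT4G11890), a cytosolic receptor-like kinase, had differences of 3.89 and 4.09 in the 2 replicates, and AT1G65500, of unknown function, 4.75 and 4.62. AT5G47550, a cystatin that inhibits cysteine proteases, had 2.755 and 1.495. These 4 genes were called by DESeq2 (adjusted p from 0.00164 to 0.0429). AT4G38560, a phospholipase-like protein gene, and AT1G57630, a Toll-interleukin receptor domain gene, had no more than 3 counts in either library of 2 groups, so their fitted values are no bound. With counts raised to 3, their mean difference was 4.94 and 5.37.

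DESeq2 also called genes with larger fitted differences. *MBP1* (AT1G52040), a myrosinase-binding protein, was at 11.8 and 0.433 CPM in cool Col-0, 0.870 and 0.253 in warm Col-0, 2.81 and 0.911 in cool *pwr-2*, and 26.8 and 22.8 in warm *pwr-2*. Its 2 *pwr-2* libraries at 27°C exceeded every other library. *CSLA10* (AT1G24070), a cellulose synthase-like gene, was at 28.5 and 1.05 CPM in cool Col-0, 1.96 and 0.380 in warm Col-0, 3.36 and 1.89 in cool *pwr-2*, and 26.7 and 22.6 in warm *pwr-2*. *PRX52* (AT5G05340), a secreted peroxidase, had differences of 7.35 and 4.05, and *CYP71B22* (AT3G26200), a cytochrome P450, 9.99 and 3.43. For *MBP1*, *CSLA10*, *PRX52* and *CYP71B22*, replicate 1 of cool Col-0 was the highest or among the 3 highest libraries, and the fitted difference without it was 4.22, 3.84, 3.58 and 4.81, against 7.09, 6.66, 7.28 and 9.87 with it. *CYP71B22* had no more than 3 counts in either library of 1 group, and its mean difference with counts raised to 3 was 7.09. *DAA1* (AT1G64110), an ATPase gene, had 4.616 and 2.196, and AT4G28790, a bHLH factor gene, 4.39 and 3.38.

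**Figure D3:**
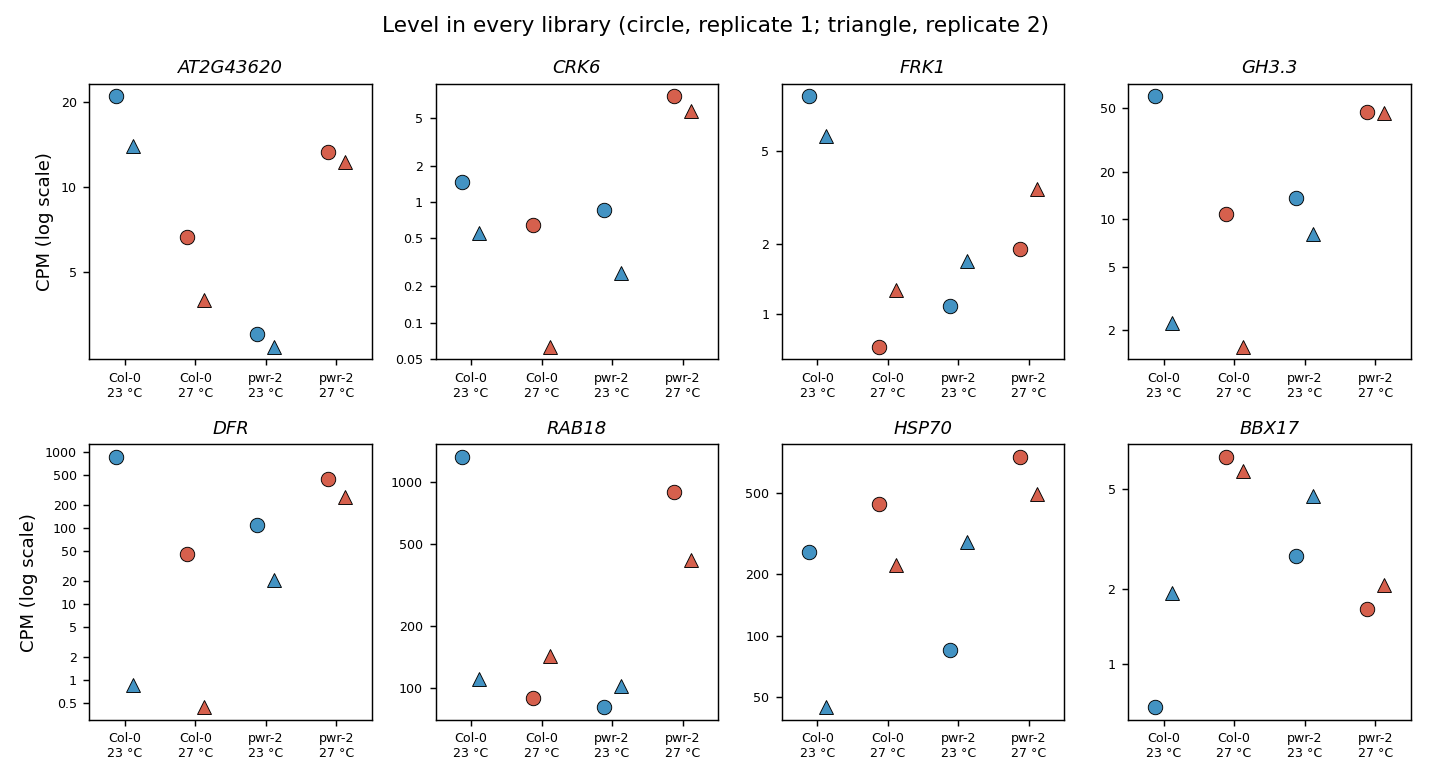
Level (CPM, log scale) of 8 genes in every library, with circles for replicate 1, triangles for replicate 2, blue for 23°C and red for 27°C. AT2G43620 went from 20.9 and 14.0 to 6.67 and 3.99 CPM in Col-0 and from 3.03 and 2.73 to 13.3 and 12.3 CPM in *pwr-2*, and the Col-0 replicates of *DFR* at 23°C lie at 864 and 0.865 CPM.

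Some of these genes sit in tandem arrays, whose members share sequence and are not independent. The 5 arrays below were chosen after their values were seen. Of 9 tested germin-like cupin genes between AT5G38910 and AT5G39200 on chromosome 5, 6 had a difference over 1 in both replicates (4.42% of all genes did), with medians of 5.12 and 2.18 in replicates 1 and 2. *GER2* (AT5G39190) was at 7.65 and 1.98 CPM in cool Col-0, 1.305 and 1.584 in warm Col-0, 0.541 and 0.520 in cool *pwr-2*, and 3.64 and 2.35 in warm *pwr-2*. Neither genotype's groups overlapped. Among wall-associated kinases, which bind pectin, 2 of 3 tested lay over 1 in both replicates. *WAK1* (AT1G21250) was at 24.3 and 1.85 CPM in cool Col-0, 6.74 and 0.507 in warm Col-0, 4.11 and 2.34 in cool *pwr-2*, and 26.8 and 37.9 in warm *pwr-2*. *WAK2* had 0.23 and 1.18. Among cysteine-rich receptor-like kinases between AT4G23130 and AT4G23320, 4 of 13 lay over 1 in both replicates, while *CRK21* (-2.28 and -0.64) and *CRK22* (-1.76 and -0.80) had an unadjusted p under 0.05 on the lower side. In the myrosinase-binding and lectin-like array 4 of 9 lay over 1 in both replicates and 1 under -1, and in the *CYP71B* array 2 of 12 lay over 1.

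The gene lists by function were read against the background of 3.71% of genes with an unadjusted p under 0.05 on the higher side, 1.13% on the lower side and 4.42% over 1 in both replicates, and no member of any list passed an adjusted p of 0.05 in edgeR. Over all genes the median difference was -0.01 in the fit. Counts of list members with a library left out are to be read against the shares of all genes given above for the same fit. In the salicylic acid list (synthesis, signalling and output of the hormone of immunity to biotrophs), 8 of 26 tested members had an unadjusted p under 0.05 and all 8 were higher (30.8%), and 11 lay over 1 in both replicates (42.3%). The list median was 2.41 in the fit, 2.55 in replicate 1 and 0.96 in replicate 2. *PBS3* (AT5G13320), which makes the conjugate from which salicylic acid forms, was at 5.91 and 0.371 CPM in cool Col-0, 0.942 and 1.14 in warm Col-0, 1.84 and 0.130 in cool *pwr-2*, and 9.67 and 11.4 in warm *pwr-2*. The *pwr-2* libraries at 27°C were the highest, and the Col-0 groups overlapped. The median change in Col-0 was -0.98 and 0.27 in the 2 replicates, and in *pwr-2* 1.62 and 1.84. Once replicate 1 of cool Col-0 was left out, the median was 0.41 and 1 member was under 0.05.

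Output genes of the list differed in which library was highest. *LURP1* (AT2G14560), a gene of defence against an oomycete, was at 5.51 and 0 CPM in cool Col-0, 0.507 and 0 in warm Col-0, 0 and 0 in cool *pwr-2*, and 3.14 and 4.78 in warm *pwr-2*. Its highest library was replicate 1 of cool Col-0. *PR2* (*BGL2*, AT3G57260), a beta-1,3-glucanase, was at 0 in replicate 2 of cool Col-0, warm Col-0 and cool *pwr-2*, and at 9.59 and 7.94 CPM in *pwr-2* at 27°C. Since Col-0 at 27°C was at or under 3 counts in both libraries, its difference with counts raised to 3 was 5.65. Its fitted difference of 8.44 is no bound, and became 3.56 without replicate 1 of cool Col-0. *AED1* (AT5G10760), a secreted protease of systemic immunity, was at 15.6 and 20.1 CPM in *pwr-2* at 27°C and at 0.371 to 2.69 CPM in the other 6 libraries. *ACD6* (AT4G14400), a regulator of cell death, was at 11.01 and 1.607 CPM in cool Col-0, 3.77 and 0.760 in warm Col-0, 3.57 and 2.28 in cool *pwr-2*, and 14.4 and 18.8 in warm *pwr-2*. In *PR2*, *AED1* and *ACD6* both *pwr-2* libraries at 27°C were above the other 6. *FMO1* (AT1G19250), which makes the mobile signal N-hydroxypipecolic acid, had differences of 5.27 and 2.46.

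Of the 27 members of the surface receptor and early immune list, 7 had an unadjusted p under 0.05, each higher (25.9%), 8 lay over 1 in both replicates (29.6%), and 22 lay above 0 in both against 28.7% of all genes. Its median was 0.91 in the fit, 1.46 in replicate 1 and 0.35 in replicate 2. In the fit that lacked replicate 1 of cool Col-0, 6 members were under 0.05 and the median was 0.39. *WRKY53* (AT4G23810), an immune transcription factor, was at 8.06 and 1.48 CPM in cool Col-0, 3.04 and 1.33 in warm Col-0, 2.165 and 1.301 in cool *pwr-2*, and 7.19 and 4.87 in warm *pwr-2*. Its *pwr-2* groups did not overlap while its Col-0 groups did. *RBOHD* (AT5G47910), the NADPH oxidase of the oxidative burst, was at 85.0 and 28.8 CPM in cool Col-0, 37.5 and 30.5 in warm Col-0, 42.4 and 34.0 in cool *pwr-2*, and 75.4 and 74.1 in warm *pwr-2*. *NHL10* (*YLS9*, AT2G35980) had differences of 7.29 and 1.65 and *CYP81F2* (AT5G57220), which modifies indole glucosinolates, 5.391 and 1.396. TTGAC was in 23 of the 27 windows of this list (85.2%, against 45.1% of all), but in 11 of the 26 of the salicylic acid list (42.3%).

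The rapid stress list of ERF and zinc-finger factors split between the replicates. Of 18 tested members 4 had an unadjusted p under 0.05, each higher (22.2%), and the median was 1.24 in the fit, 2.28 in replicate 1 and 0.08 in replicate 2. *ZAT10* (*STZ*, AT1G27730), a repressor induced by salt and cold, was at 53.2 and 4.02 CPM in cool Col-0, 6.09 and 4.25 in warm Col-0, 15.697 and 4.814 in cool *pwr-2*, and 42.3 and 11.2 in warm *pwr-2*. Its Col-0 libraries of replicate 2 were close to each other and those of replicate 1 were not. *ZAT11* (AT2G37430) had differences of 4.33 and 1.43, and *ERF6* (AT4G17490) 4.50 and 0.35. Without replicate 1 of cool Col-0 1 member was under 0.05 and the median was 0.47.

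In the jasmonate list 5 of 25 tested members had an unadjusted p under 0.05, each higher (20%), 8 lay over 1 in both replicates (32%), and the median was 0.96, with 1.32 in replicate 1 and 0.54 in replicate 2. The median was 0.495 without replicate 1 of cool Col-0, 1.69 without replicate 2 of that group and 1.588 without replicate 2 of cool *pwr-2*. With the block within each genotype 13 members were under 0.05 and higher (6.34% of all genes were). *JAZ1* (AT1G19180), a repressor that jasmonate both removes and induces, was at 94.8 and 11.9 CPM in cool Col-0, 19.9 and 7.98 in warm Col-0, 40.49 and 20.04 in cool *pwr-2*, and 72.8 and 46.0 in warm *pwr-2*. *VSP1* (AT5G24780), a jasmonate-induced storage protein, was at 4.43 and 5.13 CPM in cool Col-0, 1.88 and 3.93 in warm Col-0, 6.062 and 5.205 in cool *pwr-2*, and 15.5 and 12.5 in warm *pwr-2*. The groups of *VSP1* did not overlap between temperatures in either genotype, and its level was not highest in replicate 1 of cool Col-0. Its difference was 2.05 (standard error 0.53, unadjusted p = 0.00877).

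Camalexin is the sulphur-containing phytoalexin of Arabidopsis, made from tryptophan by the cytochromes CYP71A12, CYP71A13 and PAD3. Of 15 tested members of the camalexin and indole glucosinolate list, 5 had an unadjusted p under 0.05, each higher (33.3%). Above 0 in both replicates lay 14 of the 15, against 28.7% of all genes. The median was 1.81 in the fit, 2.43 in replicate 1 and 0.55 in replicate 2. *PAD3* (AT3G26830) was at 167 and 1.36 CPM in cool Col-0, 6.96 and 1.08 in warm Col-0, 13.9 and 12.1 in cool *pwr-2*, and 117 and 81.9 in warm *pwr-2*. Its *pwr-2* groups were far apart, whereas Col-0 at 23°C held both one of the highest libraries and one of the lowest. *GSTF6* (AT1G02930), a glutathione transferase of the pathway, was at 1666 and 27.0 CPM in cool Col-0, 131 and 27.4 in warm Col-0, 114 and 76.5 in cool *pwr-2*, and 701 and 436 in warm *pwr-2*. *CYP71A12* (AT2G30750) had a difference of 6.90 that became -1.75 without replicate 1 of cool Col-0, and the list median became -0.06. In the 12 genes of aliphatic glucosinolates, made from methionine, no member was under 0.05 and the median was 0.06, with -0.02 and 0.57 in the 2 replicates. *CYP79F1* (AT1G16410), their entry enzyme, was at 77.7 and 7.23 CPM in cool Col-0, 172 and 5.45 in warm Col-0, 34.3 and 58.2 in cool *pwr-2*, and 131 and 134 in warm *pwr-2*.

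The flavonoid and anthocyanin list had the highest median of the nuclear lists. Flavonoids are phenolic pigments and sunscreens built from chalcone, with anthocyanins as the late red branch. Of 20 tested members 12 had an unadjusted p under 0.05, each higher (60%), and 14 lay over 1 in both replicates (70%). The median was 3.77 in the fit, 3.54 in replicate 1 and 2.16 in replicate 2. The median change was -3.01 and -0.58 in Col-0 and 0.58 and 1.54 in *pwr-2*. In replicate 2 alone 14 of 20 lay over 1, against 7.01% of all genes. Once replicate 1 of cool Col-0 was left out, the fitted median was 0.99 and 3 members were under 0.05, and with replicate 2 of cool *pwr-2* left out as well it was 0.75.

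*DFR* (AT5G42800, chromosome 5 from 17164093 to 17166032 in TAIR10.1), the enzyme that commits to anthocyanin, was at 864 and 0.865 CPM in cool Col-0, 45.9 and 0.444 in warm Col-0, 112 and 20.7 in cool *pwr-2*, and 441 and 257 in warm *pwr-2*. Its Col-0 replicates differed more from each other than the temperatures did, and its *pwr-2* groups did not overlap. *TT8* (AT4G09820), a bHLH activator of the late genes, was at 63.6 and 0.309 CPM in cool Col-0, 1.23 and 0.0634 in warm Col-0, 6.82 and 2.21 in cool *pwr-2*, and 19.9 and 11.8 in warm *pwr-2*. *TT7* (AT5G07990), the flavonoid 3′-hydroxylase, was at 256 and 7.17 CPM in cool Col-0, 6.23 and 4.63 in warm Col-0, 40.5 and 6.90 in cool *pwr-2*, and 134 and 99.6 in warm *pwr-2*. In Col-0 the temperatures did not overlap for *TT7*, and neither did they in *pwr-2*. *TT4* (AT5G13930), chalcone synthase at the head of the pathway, had differences of 2.83 and 1.93. With replicate 1 of cool Col-0 left out, the fitted difference was 1.09 for *DFR*, 2.16 for *TT8*, 3.59 for *TT7* and 1.53 for *TT4*, against 7.32, 7.24, 6.52 and 2.54 with it. *MYB90* (AT1G66390), an anthocyanin activator also called PAP2, was at 94.0 and 0 CPM in cool Col-0, 0.290 and 0.0634 in warm Col-0, 2.17 and 0.195 in cool *pwr-2*, and 27.3 and 6.50 in warm *pwr-2*. For 11 of the 20 genes the level was lower at 27°C in both Col-0 replicates and higher at 27°C in both *pwr-2* replicates. The same held for 1560 of all 19936 genes.

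Abscisic acid is the hormone of drought and seed dormancy. Of 26 tested members of its list, 9 had an unadjusted p under 0.05, each higher (34.6%), 22 lay over 1 in replicate 1 and 7 over 1 in replicate 2 (15.6% and 7.01% of all genes). The median was 1.47 in the fit, 2.22 in replicate 1 and 0.50 in replicate 2. *RAB18* (AT5G66400), a dehydrin, was at 1332 and 111 CPM in cool Col-0, 89.4 and 144 in warm Col-0, 80.7 and 102 in cool *pwr-2*, and 897 and 420 in warm *pwr-2*. Both *pwr-2* libraries at 27°C lay above every library other than replicate 1 of cool Col-0. Its difference was 4.82 (standard error 1.53) and DESeq2 gave an adjusted p = 0.0397. *LEA7* (AT1G52690), a late embryogenesis abundant protein, was at 523 and 18.4 CPM in cool Col-0, 23.63 and 20.72 in warm Col-0, 53.9 and 12.1 in cool *pwr-2*, and 798 and 101 in warm *pwr-2*. *NCED3* (AT3G14440), the rate-limiting enzyme of abscisic acid synthesis under drought, was at 40.3 and 9.27 CPM in cool Col-0, 14.1 and 5.96 in warm Col-0, 23.6001 and 17.37 in cool *pwr-2*, and 84.9 and 35.4 in warm *pwr-2*. In each genotype, the direction of *NCED3* was the same in both replicates.

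Phosphatases of the abscisic acid pathway and further protective proteins had positive differences in both replicates. *HAI1* (AT5G59220), a phosphatase that abscisic acid induces, had 5.49 and 2.26, *HAI3* (AT2G29380) 6.63 and 2.95, and *LTI65* (AT5G52300), a desiccation protein, 7.12 and 1.80. *ELIP1* (AT3G22840), an early light-induced protein of the chloroplast, had 6.06 and 2.07, and AT3G02480, another late embryogenesis abundant gene, 7.83 and 2.28. In all 5 genes the value in replicate 1 exceeded that in replicate 2. ACGTG was in 16 of the 26 windows of the list (61.5%, against 24.2% of all), and in *LEA7* it begins 229, 218, 217, 179 and 76 bases before the start. It was as frequent in lists without a positive median, with 65.2% of clock windows (median -0.04) and 56.2% of iron uptake windows (median -0.50). A link between motif and difference was not tested. In the fit that lacked replicate 1 of cool Col-0, the list median was 0.62 and 6 members were under 0.05, the same number as with replicate 2 of cool *pwr-2* also left out. Summed CPM of 10 seed storage and oil body genes, which embryos also express with abscisic acid, was 597.7 and 350.8 in cool Col-0, 94.02 and 128.3 in warm Col-0, 372.2 and 3.838 in cool *pwr-2*, and 115.4 and 21.39 in warm *pwr-2*. None of the 10 was at 0 in every library, and their part in these differences was not tested.

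**Figure D4:**
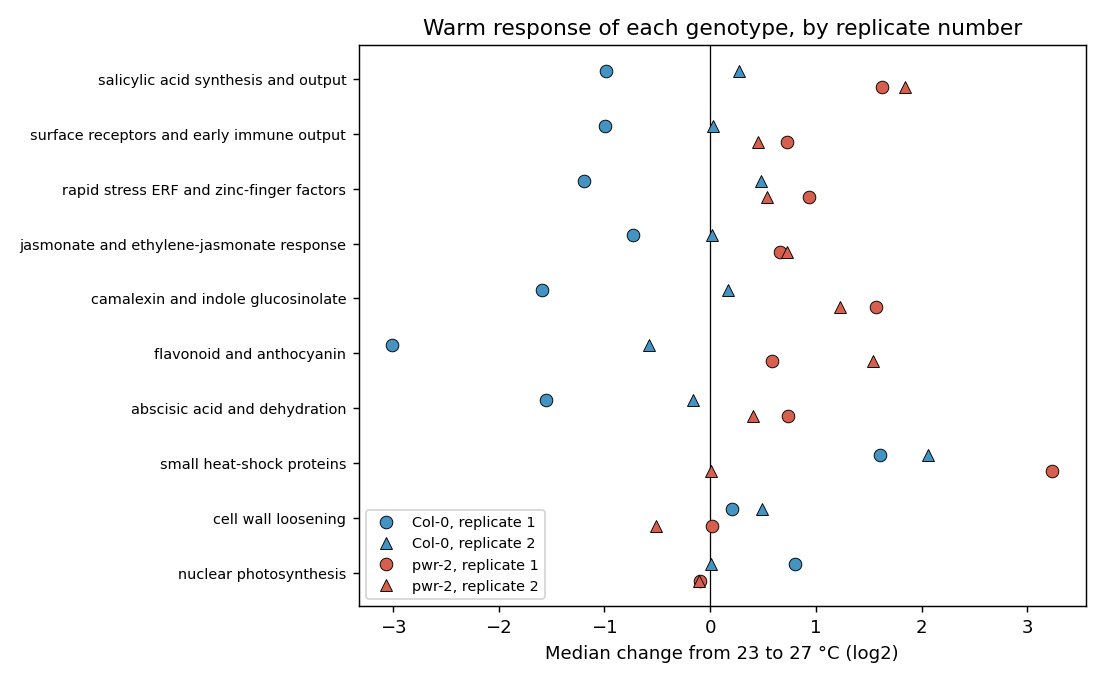
Median change from 23°C to 27°C (log2) over the members of 10 gene lists, for Col-0 (blue) and *pwr-2* (red) in replicate 1 (circles) and replicate 2 (triangles). For flavonoid genes both Col-0 medians (-3.01 and -0.58) lie below 0 and both *pwr-2* medians (0.58 and 1.54) above it, and for small heat-shock genes the *pwr-2* medians are 3.24 and 0.01.

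Senescence genes, which are induced in dark, starved or ageing leaves, had a median of 0.90 in the fit, 1.73 in replicate 1 and 0.03 in replicate 2. Of 18 tested members, 10 lay above 0 in both replicates and 6 below 0 in both (28.7% and 29.3% of all genes did). An unadjusted p under 0.05 was found for 7 of the 18, each higher (38.9%). The number was 3 with replicate 1 of cool Col-0 left out and 4 with replicate 2 of cool *pwr-2* left out. The list median was 0.29 without replicate 1 of warm Col-0, 1.595 without replicate 2 of that group, and 0.52 without replicate 1 of warm *pwr-2*. *SAG29* (AT5G13170), a sucrose transporter of senescing leaves, was at 178 and 7.23 CPM in cool Col-0, 13.5 and 5.07 in warm Col-0, 80.5 and 47.9 in cool *pwr-2*, and 294 and 118 in warm *pwr-2*. *NAP* (AT1G69490), a NAC factor that promotes senescence, was at 5.91 and 1.61 CPM in cool Col-0, 3.04 and 2.15 in warm Col-0, 0.758 and 0.260 in cool *pwr-2*, and 4.47 and 1.99 in warm *pwr-2*. The *pwr-2* libraries of *NAP* did not overlap between temperatures, and those of Col-0 did. *SAG13* (AT2G29350) had differences of 7.80 and 3.83, and its fitted difference of 8.10 became 0.85 without replicate 1 of cool Col-0.

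Of 30 auxin genes tested, 5 had an unadjusted p under 0.05 and were higher (16.7%), and all 5 (*GH3.1*, *GH3.2*, *GH3.3*, *GH3.5* and *GH3.6*) encode enzymes that join amino acids to auxin and so remove it. *GH3.2* (*BRU6*, AT4G37390) was at 36.0 and 8.10 CPM in cool Col-0, 7.25 and 4.25 in warm Col-0, 19.2 and 11.7 in cool *pwr-2*, and 54.6 and 46.5 in warm *pwr-2*. Its groups did not overlap between temperatures in either genotype. The difference was 3.53 (standard error 0.64), and DESeq2 gave an adjusted p = 0.00406. *GH3.3* (AT2G23170) was at 59.6 and 2.23 CPM in cool Col-0, 10.7 and 1.58 in warm Col-0, 13.5 and 8.13 in cool *pwr-2*, and 47.4 and 47.0 in warm *pwr-2*. *GH3.1* (AT2G14960) had 1.91 and 1.99, and *GH3.6* (*DFL1*, AT5G54510) a fitted difference of 1.13. The fit that lacked replicate 1 of cool Col-0 had 1 auxin gene under 0.05 and gave *GH3.3* 1.63 in place of 4.36, and the fit that lacked replicate 2 of cool *pwr-2* had 2 higher and 3 lower. The median of the whole auxin list was -0.19, with -0.23 and -0.24 in the 2 replicates, and its sign turned with single libraries left out (-0.55 to 0.07). *TAR2* (AT4G24670), an aminotransferase of auxin synthesis, had -1.83 and -0.64, and *IAA29* (AT4G32280), an auxin-induced repressor, -2.57 and -0.80, neither with an unadjusted p under 0.05.

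Genes of the growth response to warmth showed no call. *PIF4* (AT2G43010) was at 79.4 and 91.9 CPM in cool Col-0, 127 and 97.1 in warm Col-0, 138 and 107 in cool *pwr-2*, and 117 and 85.3 in warm *pwr-2*. Its level was higher at 27°C in both Col-0 replicates and lower in both *pwr-2* replicates, with a difference of -0.64 (standard error 0.32, unadjusted p = 0.0945) and values of -0.92 and -0.40 in the 2 replicates. *YUC8* (AT4G28720), an auxin synthesis enzyme that *PIF4* activates, lay between 1.88 and 3.21 CPM in all 8 libraries, and its difference was -0.13 (standard error 0.54). The flowering gene *FT* had 9 counts in replicate 2 of cool *pwr-2* and 0 or 1 elsewhere, and was not tested. Among 23 light and temperature growth regulators 0 were under 0.05, and the median was -0.13. *PAR1* (AT2G42870), which inhibits elongation, had -1.74 and -1.55, and *PRE1* (AT5G39860), which promotes it, -4.02 and -1.28. Of 23 clock genes 0 were under 0.05, with a median of -0.04 (*PRR7* had -1.01 and -0.20, *RVE1* -1.53 and -0.19). Of 15 genes of histone deacetylation and the histone variant H2A.Z 0 were under 0.05, with a median of 0.02, and *HDA9* (AT3G44680) lay between 11.8 and 17.9 CPM in all libraries.

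Heat-shock genes gave opposite answers in the 2 replicates. Small heat-shock proteins, holdases of unfolding proteins, had a median of -1.73 in the fit, with 1.25 in replicate 1 and -2.48 in replicate 2 over 16 genes, none with an unadjusted p under 0.05. In replicate 1, 9 lay over 1 (15.6% of all genes did), and in replicate 2, 11 lay under -1 (5.22% of all genes did). *HSP17.4* (AT3G46230) was at 3.49 and 0.618 CPM in cool Col-0, 28.4 and 5.83 in warm Col-0, 0.108 and 106 in cool *pwr-2*, and 25.1 and 89.5 in warm *pwr-2*. Replicate 2 of cool *pwr-2* was thus the highest of all libraries and replicate 1 of the same group the lowest. *HSP15.4* (AT4G21870) was the member under -1 in both replicates, with -1.09 and -1.26. Without replicate 2 of cool *pwr-2* the list median was 2.54, and without replicate 1 of cool Col-0 -4.46. With both of these libraries left out it was 1.12. *HSP70* (AT3G12580), a warmth marker, was at 256 and 44.4 CPM in cool Col-0, 442 and 223 in warm Col-0, 84.9 and 289 in cool *pwr-2*, and 753 and 497 in warm *pwr-2*. It was higher at 27°C in both replicates of both genotypes, and its difference of 0.24 (standard error 1.29) comprised 2.36 and -1.54.

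Among the large chaperones (15 tested, median -0.10), 1 gene, *Hsp70-2* (AT5G02490), had an unadjusted p under 0.05. It was at 25.1 and 13.2 CPM in cool Col-0, 24.4 and 23.0 in warm Col-0, 19.38 and 20.04 in cool *pwr-2*, and 53.5 and 55.7 in warm *pwr-2*. Its 2 *pwr-2* libraries at 27°C were above the other 6. *ROF1* (AT3G25230), a co-chaperone, was higher at 27°C in both replicates of both genotypes, with a difference of -0.22. Among 17 heat-shock factors the median was 0.13 and 1 gene was under 0.05, *HSFA6A* (AT5G43840), with 3.88 and 0.39. *HSFA4A* (AT4G18880) had 1.55 and 0.48.

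Fewer genes had a lower warm response in *pwr-2*, and they had smaller differences. The median of the 226 was -1.42 in the fit, -1.60 in replicate 1 and -1.21 in replicate 2, against 2.376, 2.969 and 1.303 for the 740. Their highest level lay in a Col-0 library at 27°C for 66 and 69 genes and in replicate 1 of cool Col-0 for 0. *BBX17* (AT1G49130), a B-box zinc-finger factor, was at 0.671 and 1.92 CPM in cool Col-0, 6.74 and 5.89 in warm Col-0, 2.71 and 4.68 in cool *pwr-2*, and 1.65 and 2.08 in warm *pwr-2*. Both genotypes' temperatures were apart, in opposite directions. The difference was -3.28 (standard error 0.63, unadjusted p = 0.00202). It was between -4.06 and -2.77 with any library left out, and DESeq2 gave an adjusted p = 0.0891.

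Several of the lower genes with the lowest p encode transporters. *NRT1.5* (AT1G32450), which loads nitrate into the root xylem, was at 76.1 and 49.8 CPM in cool Col-0, 101 and 96.4 in warm Col-0, 66.5 and 50.5 in cool *pwr-2*, and 41.3 and 34.8 in warm *pwr-2*. *ZIP3* (AT2G32270), a zinc transporter, had differences of -1.34 and -1.58, *ABCB15* (AT3G28345), an ABC transporter, -1.78 and -1.27, and AT2G16660, of the major facilitator superfamily, -1.09 and -1.34. In each of these 4 genes the level was higher at 27°C in both Col-0 replicates and lower at 27°C in both *pwr-2* replicates. *PHT1;1* (AT5G43350), a root phosphate transporter, was at 21.1 and 44.2 CPM in cool Col-0, 30.2 and 47.0 in warm Col-0, 74.6 and 52.0 in cool *pwr-2*, and 21.9 and 16.0 in warm *pwr-2*. It is the 1 of 11 tested root markers with an unadjusted p under 0.05, and their median was 0.04. Of these markers 3, *PHT1;1*, *COBL9* and *EXPA7*, lay under -1 in both replicates (2.42% of all genes did) and 1, *NRT2.1*, over 1. The median of the root markers was -0.47 without replicate 1 of cool Col-0 and -0.84 under a filter that asked each library for 10 counts. Summed CPM of the 12 root markers was 84.84 and 71.3 in *pwr-2* at 27°C against 106.2 to 146.6 in the other 6 libraries. *PHT1;1* is itself in this sum, at 74.6 of 146.6 CPM in replicate 1 of cool *pwr-2*, so the sum partly restates its fall. The part of root tissue in these differences was not tested.

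*DCF* (AT3G48720), an acyltransferase of cutin, was at 6.98 and 14.0 CPM in cool Col-0, 34.1 and 18.2 in warm Col-0, 15.6 and 14.6 in cool *pwr-2*, and 7.03 and 3.79 in warm *pwr-2*. *GMD1* (AT5G66280), which makes the precursor of fucose, had -1.86 and -1.58, AT5G42500, a dirigent-like gene, -1.65 and -2.24, AT4G31320, a SAUR-like gene, -3.01 and -2.64, and *scpl1* (AT5G36180), a serine carboxypeptidase-like gene, -1.90 and -1.66. Of 16 genes of cell wall loosening, 2 had an unadjusted p under 0.05, both lower, and 10 lay below 0 in both replicates (29.3% of all genes did), with a median of -0.50 in the fit and -0.56 and -0.95 in the replicates. The 2 were the expansin *EXPA10* (AT1G26770; -1.35 and -0.99) and the xyloglucan enzyme *XTH15* (AT4G14130; -1.61 and -2.10). *EXPA8* (AT2G40610) was at 18.3 and 150 CPM in cool Col-0, 115 and 183 in warm Col-0, 51.7 and 43.2 in cool *pwr-2*, and 33.9 and 11.3 in warm *pwr-2*. With any library left out the median stayed below 0, from -0.81 to -0.57.

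Copper proteins had differences of both signs. The copper/zinc superoxide dismutases remove superoxide, and *CCS* loads copper into them. *CSD2* (AT2G28190) was at 17.5 and 280 CPM in cool Col-0, 57.2 and 295 in warm Col-0, 616 and 371 in cool *pwr-2*, and 118 and 12.7 in warm *pwr-2*. The *pwr-2* temperatures were far apart in both replicates, while the Col-0 replicates differed from each other. *CCS* (AT1G12520) was at 9.67 and 105 CPM in cool Col-0, 20.7 and 118 in warm Col-0, 65.8 and 75.3 in cool *pwr-2*, and 17.5 and 12.4 in warm *pwr-2*. *CSD1* (AT1G08830) had differences of -2.43 and -2.69. With the block within each genotype the unadjusted p was 0.00495 for *CSD2* and 6.70e-04 for *CCS*, against 0.198 and 0.107 in the reported fit. *CCH* (AT3G56240), a copper chaperone of the ATX1 type, had 1.35 and 1.03. The list of 13 had 4 genes over 1 and 3 under -1 in both replicates (4.42% and 2.42% of all genes did). In iron uptake (16 tested, median -0.50), 1 gene was under 0.05, *FIT* (*FRU*, AT2G28160), the master factor of iron uptake in roots, with -1.96 and -1.78. The iron median was 0.02 without replicate 1 of cool *pwr-2*, -0.08 without replicate 2 of warm Col-0, and as low as -0.81 without replicate 2 of cool Col-0.

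Photosynthesis was read from 2 genomes. Of 20 nuclear genes of light harvesting and carbon fixation 19 had a fitted difference below 0 (10105 of all 19936 genes did), none with an unadjusted p under 0.05. The median was -0.49, with -1.02 in replicate 1 and -0.07 in replicate 2. *RBCS2B* (AT5G38420), a small subunit of Rubisco, was at 1699 and 3229 CPM in cool Col-0, 4587 and 3532 in warm Col-0, 4507 and 2807 in cool *pwr-2*, and 3801 and 2595 in warm *pwr-2*. Without replicate 1 of cool Col-0 the list median was -0.06. Of the genes of the organelles, 62 chloroplast genes and 30 mitochondrial genes were tested and all 92 had a fitted difference above 0 (9831 of all 19936 genes did). Their medians were 2.17 and 2.36, with 0 under an unadjusted p of 0.05. In replicates 1 and 2 the medians were 1.11 and 5.54 for chloroplast genes and 2.04 and 1.95 for mitochondrial genes. The photosystem gene ATCG00350 was at 8549 and 179 CPM in cool Col-0, 319 and 226 in warm Col-0, 6532 and 16.1 in cool *pwr-2*, and 2586 and 1529 in warm *pwr-2*. In both genotypes its replicates were farther apart at 23°C than at 27°C. With replicate 1 of Col-0 and replicate 2 of cool *pwr-2* both left out, the medians were -1.396 and -1.544, so their sign rested on these libraries.

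**Figure D5:**
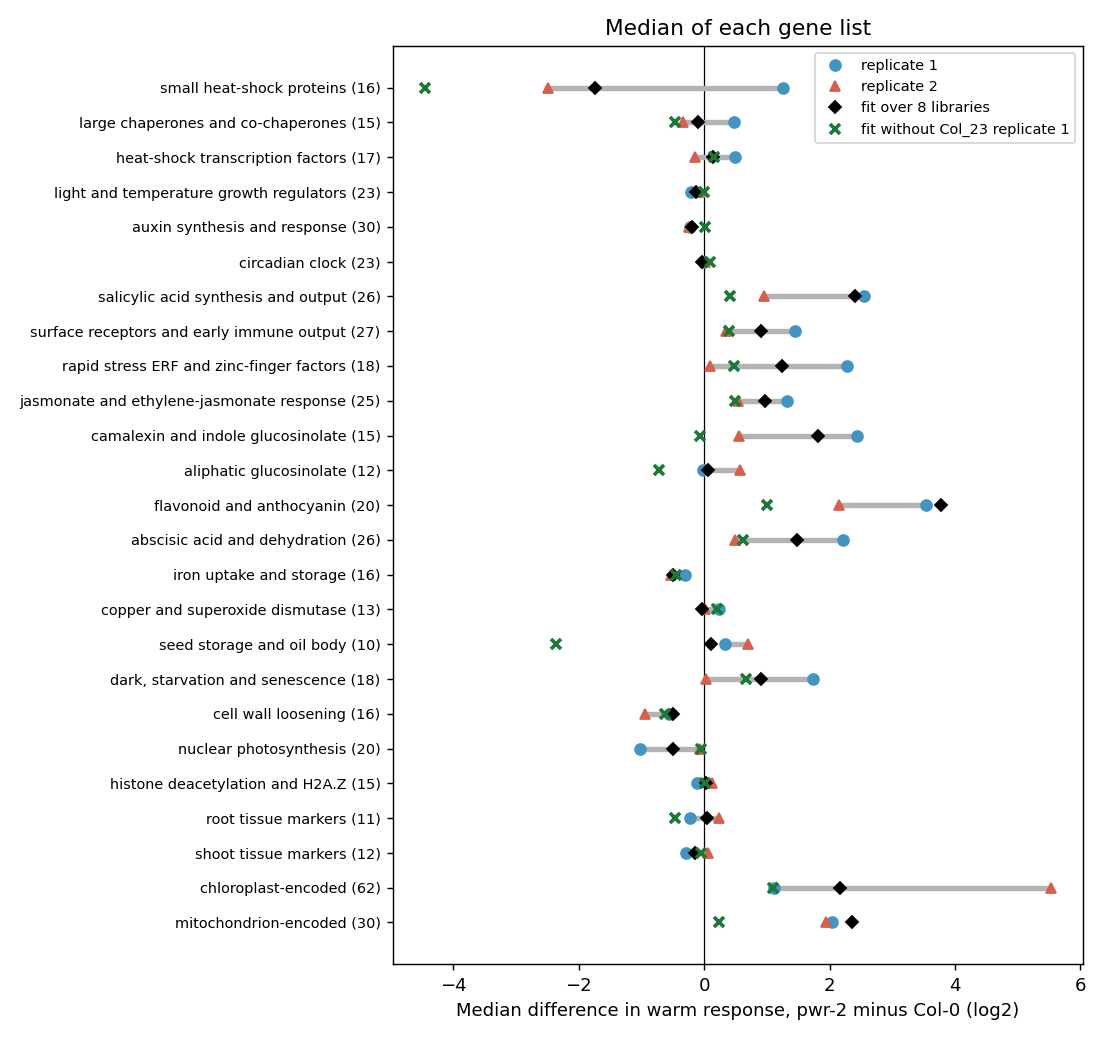
Median difference in warm response (*pwr-2* minus Col-0, log2) of each gene list, with the number of genes tested in brackets, from the fit over 8 libraries (diamonds), replicate 1 (circles), replicate 2 (triangles) and the fit without replicate 1 of cool Col-0 (crosses). Flavonoid genes lie at 3.77, 3.54, 2.16 and 0.99 in that order, and small heat-shock genes lie on either side of 0 in the 2 replicates.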

How the data were processed

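RNA was extracted from whole seedlings (8 libraries, 4 groups of 2) and sequenced as 90 bp read pairs. Per the labels and the study's methods, the authors checked reads with FastQC, removed ribosomal reads, aligned to TAIR10 with TopHat2 2.1.0 and Bowtie2 2.1.0, and deposited fragment counts per gene from featureCounts 1.4.5, not normalized. The strand setting is not given in the sources used here, so reads of overlapping antisense genes cannot be told apart, and near-identical copies can share reads. Normalized tables were not used.

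The raw counts were joined by gene ID and tested with the edgeR 4.0.16 quasi-likelihood test (R 4.3.3, current method, TMM, filterByExpr, Benjamini-Hochberg adjustment, two-sided) on the interaction of genotype and temperature, with the replicate number as a block. The standard error is the size of the fitted value divided by the square root of F. Differences per replicate are on log2 CPM with a prior count of 2. The block follows the authors, who modelled a batch effect between replicates. The deviations of same-numbered libraries correlated in every pair of groups. The correlation was stronger within a genotype (r = 0.652 in Col-0 and 0.561 in *pwr-2*) than between genotypes (r = 0.26 to 0.373), so a block common to all groups takes up only part of it. Replicates are called biological in the labels, with 2 per group. The p-values of the reported fit measure the spread between them that is left once the replicate shift common to the 4 groups is taken out.

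Alternatives comprised DESeq2 1.42.0, limma 3.58.1 (voom), other scalings, filters and blocks, and each library left out. DESeq2 with the block within each genotype, and leaving out replicate 1 of Col-0 and replicate 2 of *pwr-2* at 23°C together, were chosen after seeing the data. Scripts were tested on simulated data. Members and lists were chosen with earlier results of these data known. Named genes were *PWR*, *PIF4*, *YUC8*, *HSP70* and *FT*, the 10 lowest p in each direction with the same sign in both replicates, up to 15 DESeq2 calls, and, per list, up to 4 members largest in the direction of the list's median and up to 4 with an unadjusted p under 0.05. Other genes named, those of the tandem arrays, *HSP17.4* and *GH3.5*, were chosen after their values were seen. Of 33602 IDs 32835 matched the reference. Promoter windows (250 bases before the annotated start) come from the RefSeq TAIR10.1 assembly.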

Additional observations from a re-analysis of the deposited data

Results flagged for a closer look

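For the following genes and lists the level moved one way from 23°C to 27°C in both Col-0 replicates and the other way in both *pwr-2* replicates. The difference was not tested beyond the interaction fit, in which no gene passed the adjusted p of edgeR. Over all 19936 genes, 1560 had this pattern with the level higher at 27°C in *pwr-2* and 1563 the reverse. Values are fitted differences on the log2 scale, and for lists medians of them.

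Among lists, the pattern held for the medians of flavonoid and anthocyanin genes (3.77) and abscisic acid and dehydration genes (1.47). It also held for iron uptake genes (-0.50, but 0.02 without replicate 1 of *pwr-2* at 23°C) and, in sign only, nuclear photosynthesis genes (-0.49). Photosynthesis medians changed by 0.80 and 0.003 in Col-0, the latter hardly a movement, and by -0.096 and -0.108 in *pwr-2*. With the replicate 1 library of cool Col-0 dropped, the flavonoid, abscisic acid, iron and photosynthesis values became 0.995, 0.62, -0.44 and -0.06.

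Genes of immunity with this pattern were AT2G43620 (3.86), *ARCK1* (4.60), *CRK6* (5.38), *FRK1* (3.81), *RLP23* (5.72), *ACD6* (4.08), *CYP81F2* (4.09), *WRKY53* (2.73), *PAD3* (6.71), *MBP1* (7.09), *VSP1* (2.05) and *JAZ1* (2.67). AT4G38560 (5.15) and AT1G57630 (9.30) had groups at or under 3 counts, so these fitted values are no bounds.

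In pigment and dehydration genes the values were *DFR* 7.32, *TT8* 7.24, *TT7* 6.52, *TT4* 2.54, *HAI3* 4.91, *LTI65* 4.56, *NCED3* 2.52, AT3G02480 5.20 and *ELIP1* 4.26. Leaving out the first replicate of Col-0 at 23°C gave *DFR* 1.09, *TT8* 2.16, *TT7* 3.59 and *TT4* 1.53. For auxin conjugation they were *GH3.2* 3.53, *GH3.3* 4.36 and *GH3.1* 2.25, and for senescence *SAG13* 8.10 and *SAG29* 4.18. The same omission gave *GH3.3* 1.63, *SAG13* 0.85, *SAG29* 1.94, *PAD3* 2.11 and *CYP81F2* 1.31. Further genes were *ARCK1* (4.60), AT1G65500 (5.21, of unknown function), AT5G47550 (2.18), *CSLA10* (6.66), *PRX52* (7.28) and *DAA1* (3.51). The rest were AT4G28790 (4.19), *HSFA6A* (2.16), *HSFA4A* (1.04) and *HDA6* (0.16).

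On the lower side were *PIF4* (-0.64), *BBX17* (-3.28), *PAR1* (-1.74), *TAR2* (-1.22), *EXPA8* (-1.93), *EXPA10* (-1.14), *RBCS2B* (-0.87), *CSD2* (-3.08), *CCS* (-2.49), *DCF* (-2.74), *GMD1* (-1.77), AT5G42500 (-2.04) and AT4G31320 (-3.08). Transporters were *NRT1.5* (-1.29), *ZIP3* (-1.51), *ABCB15* (-1.53), *PHT1;1* (-1.99) and AT2G16660 (-1.23).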

How the results depend on the processing

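For the replicate block, no gene was called by edgeR with the block, within each genotype or without one (0 in each). Genes with a higher warm response in *pwr-2* at an unadjusted p under 0.05 numbered 493 with no replicate block and 1264 with the block within each genotype, and lower ones 100 and 725. At an adjusted p under 0.05 DESeq2 called 25 genes, 20 with a prior on fold changes and 256 with the block within each genotype, where 626 genes were lower at an unadjusted p. With replicate 1 of Col-0 and replicate 2 of *pwr-2* at 23°C both left out, 166 were higher and 104 lower, *PWR* had a difference of -0.50 and ATCG00350 of -1.67. With 1 library left out, calls ranged from 0 to 221, higher genes from 264 to 1935 and lower genes from 80 to 1779. Genes over 1 in both replicates numbered 389 with at least 10 counts in every library, 1590 at a limit of 0.58 and 290 at a limit of 2, and genes under -1 250, 1182 and 65. Of the gene lists outside the organelles, 5 had a median over 1, against 1 with the DESeq2 prior, 1 with both libraries left out, and 0 to 9 with 1 library left out. With 1 library left out, signs turned for *PWR* (-0.20 to 0.95), *YUC8* (-0.60 to 0.19), *HSP70* (-1.18 to 2.13), *ROF1* (-0.57 to 0.08), *RVE1* (-2.32 to 0.33), *CYP71A12* (-1.75 to 11.2), *CYP79F1* (-1.44 to 3.75) and *CRA1* (-0.95 to 6.88). The cause was not tested. A library left out leaves 1 in its group, assumed to vary like the others.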
